A study of Drosophila melanogaster with 3 samples.

Results

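The circadian clock genes described here are 8 genes of Drosophila melanogaster: cwo, vri, Pdp1, Clk, cyc, per, tim and cry. They were chosen from measured values, since the regions deposited for these samples were known when the genes were picked, and all 8 were found among the 13945 protein-coding genes of the chromosome arms. A region was given to a gene when its summit, the position of highest enrichment, lay between the ends of the gene or up to 2 kb upstream of its start. In the authors' optimal set 4 of the 8 genes had a peak, and the other 4 had none. Because the same regions served to pick the genes, every count over them is a description and carries no test.

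The study mapped where HLHm7, the protein of the Enhancer of split gene E(spl)m7-HLH, sits on chromatin. HLHm7 is a basic helix-loop-helix repressor of the Hairy and Enhancer of split family, which acts downstream of Notch signalling. ChIP-seq was run on whole embryos of mixed sex, 0 to 16 h old, from a stable transgenic line of the HLHm7-GFP strain in which GFP is joined to the C-terminus of the protein, and the antibody recognised GFP. The 3 samples are biological replicates and make up 1 group. All of them carry the tagged transgene, and no untagged embryos enter any comparison here. Whole embryos mix all tissues and many stages, so the signal cannot be given to a cell type, and no tissue marker could be checked because expression was not measured. The sources used here do not give the number of embryos, the regulatory sequence of the transgene or the state of the untagged copies of the gene.

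The fly clock is a loop in which the proteins of Clk and cyc pair up and switch on target genes through E-boxes, short sites with the letters CACGTG. Among the targets are per and tim, whose products return to the nucleus and block CLK and CYC, while the CRY photoreceptor resets the loop by light. In a second loop the bZIP proteins VRI and PDP1 act on Clk, and CWO, a basic helix-loop-helix protein with an Orange domain like that of HLHm7, binds E-boxes as a repressor. HLHm7 and its relatives are known to bind related boxes and to recruit the corepressor Groucho. Many clock genes are also active in tissues and stages with no rhythm, and vri and Pdp1 are known for roles in growth and development.

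The authors' lists rank regions by signal, a value whose scale is not stated, so levels are given here as ranks within a list, where 1 is the strongest. On the dm6 genome build the optimal set, which passed the authors' test of reproducibility, held 2397 peaks. These were the 2397 strongest of the 30000 regions listed for the pooled replicates. The label of that list names it peaks and background, so regions outside the optimal set need not be binding sites. The lowest −log10 q-value was 0.0252 in the pooled list, and 0.0575, 0.0732 and 0.0231 in the lists of replicates 1, 2 and 3. Each replicate had its own list of 30000 regions, and a region ranked within the strongest 2397 of a replicate is called a top region below. Of all optimal peaks, 97.4% had a region within 200 bp of their summit in every replicate list, and the median range of those summits was 45 bp. Depth is unknown, as the lists carry no read numbers.

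The sequences under the strongest regions are shown first, because the letters at these summits are the part of the finding that a list of ranks leaves out. All are from the plus strand of dm6, taken from the RefSeq genome, in lower case, with any match to the 9 motifs searched in capitals. The strongest regions of cwo and Pdp1 are given for 100 bp to each side of the summit, at chr3R:10393794-10393994 and chr3L:7850991-7851191. The cwo window holds a single match, to CACNAG, and the Pdp1 window holds none.
cwo intron: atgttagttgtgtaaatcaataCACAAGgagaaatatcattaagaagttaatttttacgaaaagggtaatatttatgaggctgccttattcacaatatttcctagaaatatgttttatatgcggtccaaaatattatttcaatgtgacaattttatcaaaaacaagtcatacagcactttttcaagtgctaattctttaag
Pdp1 intron: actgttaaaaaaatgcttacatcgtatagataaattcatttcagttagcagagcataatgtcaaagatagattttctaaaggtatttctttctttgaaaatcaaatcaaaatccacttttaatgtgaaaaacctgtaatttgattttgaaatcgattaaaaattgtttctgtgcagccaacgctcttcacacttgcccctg

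The other 3 stretches are those in which E-boxes can be set against the regions. For vri the stretch runs from 50 bp before to 200 bp after the summit of its stronger optimal peak, at chr2L:5303762-5304012, and shows a pair of E-boxes beyond the summit. For tim the 28 bp at chr2L:3507417-3507444 hold an E-box and 2 boxes with the letters AACGTG, 1 of them on the other strand, and lie beside the summit of its stronger pooled region. For per, which had no pooled region, the E-box nearest upstream of the gene start is shown with 30 bp to each side, at chrX:2685020-2685085.
vri intron: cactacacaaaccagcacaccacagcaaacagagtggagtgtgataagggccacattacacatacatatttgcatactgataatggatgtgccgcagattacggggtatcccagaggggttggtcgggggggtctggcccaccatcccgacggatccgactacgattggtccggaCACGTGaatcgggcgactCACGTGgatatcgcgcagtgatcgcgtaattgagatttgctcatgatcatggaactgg
tim start: CACGTGtaatcacAACGTGccgCACGTT
per upstream: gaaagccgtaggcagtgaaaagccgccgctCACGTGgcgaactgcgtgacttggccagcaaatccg

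The gene for the clock repressor CWO held 1 of the strongest regions of the group. cwo (FBgn0259938) is on the plus strand of 3R from 10388258 to 10400752 and has 1 annotated transcription start site (TSS) for its 3 transcripts. Its optimal peak (3R, 10393702 to 10394085) had a signal of 208.1 and rank 574 of 2397. The deposited −log10 q-value was 3.32, the highest value in the optimal set. Pdp1, at rank 537, had the same value, so this maximum is not confined to the peaks of strongest signal. The summit lay 5636 bp downstream of the start, inside the first intron, which is 7259 bp long in all 3 transcripts.

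The median range over the optimal peaks matched in every replicate was 45 bp, and at cwo the replicates placed this region within 77 bp. It ranked 728 in replicate 1, 555 in replicate 2 and 525 in replicate 3, a mean of 602.7 ± 109.6 (SD, n = 3). All 3 ranks were top ranks and none overlapped those of vri, cyc, tim or cry. A second region at 667 bp from the start, in the 5' UTR, had pooled rank 3273 and a signal of 75.0. It was matched in replicate 2 at rank 1803 and in replicate 3 at rank 5307, and the nearest summit of replicate 1 was 397 bp away, so it was a top region in replicate 2 alone. The remaining 7 pooled regions of cwo ranked from 10388 to 25196.

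Pdp1, the bZIP activator of Clk, had the best rank of the 8 genes. The gene (FBgn0016694) is on the minus strand of 3L from 7811458 to 7867369, is 55.9 kb long and has 4 distinct TSSs for 13 transcripts. Its optimal peak (3L, 7850899 to 7851282) had a signal of 216.6, rank 537 and a −log10 q-value of 3.32. The summit lay 16278 bp from the gene start and 4457 bp downstream of the nearest TSS of the gene, in an intron of each of the 9 transcripts that span it.

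Summits of the Pdp1 region lay within 77 bp in the replicates, also above the median range of 45 bp. The region ranked 812, 484 and 419 in replicates 1, 2 and 3 (mean 571.7 ± 210.7, SD, n = 3). These ranks overlapped those of cwo, so the order of the 2 genes is within the spread of the replicates. Pdp1 held 9 further pooled regions, at ranks from 4738 to 27995, and none was a top region in a replicate. Those of rank 4738 and 4740 lay 4808 and 499 bp from the gene start. The latter was matched in replicates 1 and 2, at ranks 10497 and 2648, and the nearest summit of replicate 3 was 972 bp away.

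vri, which encodes the bZIP repressor of Clk, had 2 optimal peaks, both in the weaker end of the optimal set. The gene (FBgn0016076) is on the plus strand of 2L from 5288944 to 5311223. The first peak (5303620 to 5304003) had a signal of 99.8 and rank 2064, and lay in an intron 14868 bp from the gene start, at -1838 bp from an internal TSS of vri. The second (5299279 to 5299662) had a signal of 97.6 and rank 2144, and lay at -176 bp from another internal TSS. Of the 5 optimal peaks in the 8 genes, the second was the only peak within 1 kb of a start of its own gene.

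The replicates differed in which part of vri was strongest. By the nearest summit, the peak of rank 2064 ranked 1993, 1940 and 3742 in replicates 1, 2 and 3 (mean 2558.3 ± 1025.4, SD, n = 3). A stronger region of replicate 3 lay beside it, at 14711 bp from the gene start with rank 2643. Taking that region for replicate 3, the mean was 2192.0 ± 391.5 (SD, n = 3). The peak of rank 2144 ranked 2835, 3130 and 1480 (mean 2481.7 ± 879.9, SD, n = 3). Each replicate therefore had a top region in vri, at 14899 bp from the start in replicate 1, at 14855 bp in replicate 2 and at 10552 bp in replicate 3. Replicate 1 had a further top region in a coding exon at 20513 bp (rank 2373), and replicate 3 had another at 8471 bp (rank 2082). Taking the best rank in the gene whatever its position, the values were 1993, 1940 and 1480 (mean 1804.3 ± 282.1, SD, n = 3), with no overlap with cwo or Pdp1.

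The threshold of the optimal set passed between regions of vri. The weakest member peak inside was that of vri at rank 2144, and the strongest regions outside were those at 8480 bp in vri (rank 3234, signal 75.5) and in the 5' UTR of cwo (rank 3273). The lowest signal in the optimal set was 90.6.

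The gene for CYC, the partner of CLK, was counted through a peak at the start of its neighbour. cyc (FBgn0023094) is 2.17 kb long, on the minus strand of 3L from 19813770 to 19815938. The optimal peak (19817687 to 19818070; signal 105.9, rank 1873) had its summit 1941 bp upstream of cyc and 88 bp downstream of the TSS of Fibp. The closest summits were 1, 225 and 5 bp away in replicates 1, 2 and 3 and ranked 2202, 1448 and 2506. The summit of replicate 2 lay beyond the 2 kb limit, and with the gene span and 1 kb upstream cyc had no optimal peak. A second region, in the 259 bp first intron of cyc at 275 bp from its start, had pooled rank 4235 and ranks of 17620, 4936 and 6305 in the replicates.

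**Figure D1:**
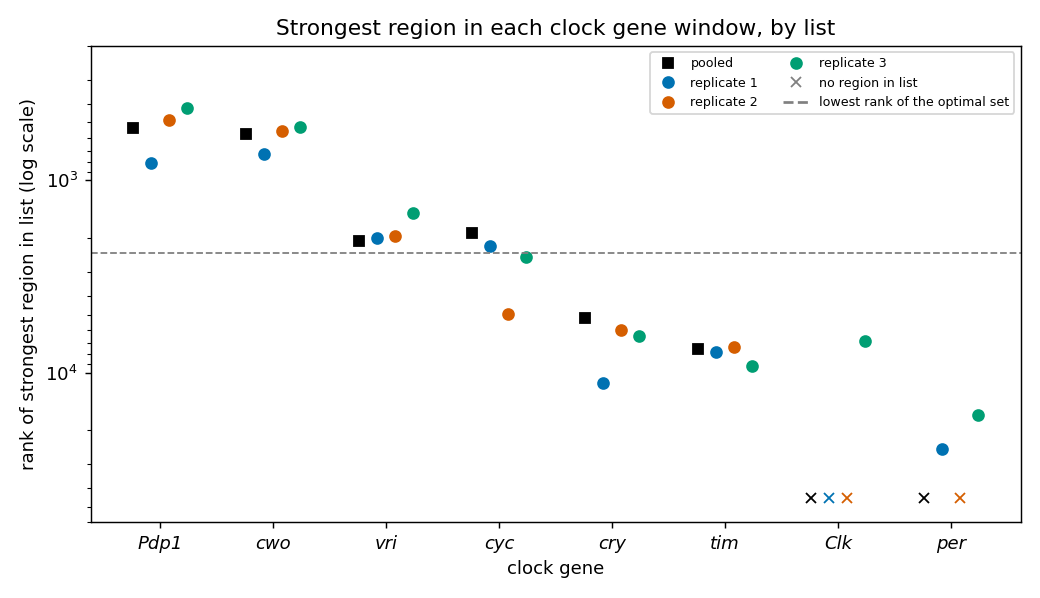
Rank of the strongest region in the window of each clock gene (vertical axis, log scale, strongest at the top), for the pooled list (squares) and replicates 1 to 3 (circles); crosses mark lists with no region and the dashed line is rank 2397. Pdp1, cwo and vri lie above the line in every list, cyc in 2 of 4 lists, and cry, tim, Clk and per in none.

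Clk, which encodes the activator of the loop, had no optimal or pooled region. Clk (FBgn0023076) is on the minus strand of 3L from 7763233 to 7775603. Neither replicate 1 nor replicate 2 listed a region there, and replicate 3 had 1, of rank 6868 and signal 15.9, in a coding exon 6972 bp from the start. The nearest pooled summit was 6.79 kb from the gene (rank 7639), and the nearest optimal peak was 44.6 kb away (rank 2139).

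per, the founding clock gene and an inhibitor of CLK and CYC, was also without an optimal or pooled region. per (FBgn0003068) is on the plus strand of X from 2685580 to 2692780. Replicate 1 listed a region of rank 25042, replicate 2 listed none, and replicate 3 listed 2, of ranks 16609 and 25350, all in coding exons. The nearest pooled summit was 3.16 kb from the gene (rank 8286). The nearest optimal peak, 11.1 kb away at Ugalt, was the fourth strongest of the whole set (rank 4).

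tim, which encodes the partner of PER, had 2 pooled regions below the optimal threshold. tim (FBgn0014396) is on the minus strand of 2L from 3493986 to 3508119 and has 3 distinct TSSs. The stronger region (3507294 to 3507677; rank 7556, signal 51.2, −log10 q-value 0.289) had its summit 118 bp downstream of 1 of these TSSs and 633 bp from the gene start. It was placed at 0 bp in replicate 1 (rank 7795) and 85 bp away in replicate 2 (rank 7323), but the nearest summit of replicate 3 was 478 bp away (rank 27656). The best ranks anywhere in tim were 7795, 7323 and 9269 (mean 8129 ± 1015.1, SD, n = 3).

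cry, which encodes the blue-light photoreceptor, had 1 pooled region just upstream. cry (FBgn0025680) is on the plus strand of 3R from 19212154 to 19215442. The region (19211658 to 19212041; rank 5225, signal 59.4) had its summit at -304 bp from the TSS. It ranked 11263, 6006 and 6475 in the replicates (mean 7914.7 ± 2909.2, SD, n = 3), which overlaps the ranks of tim.

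**Figure D2:**
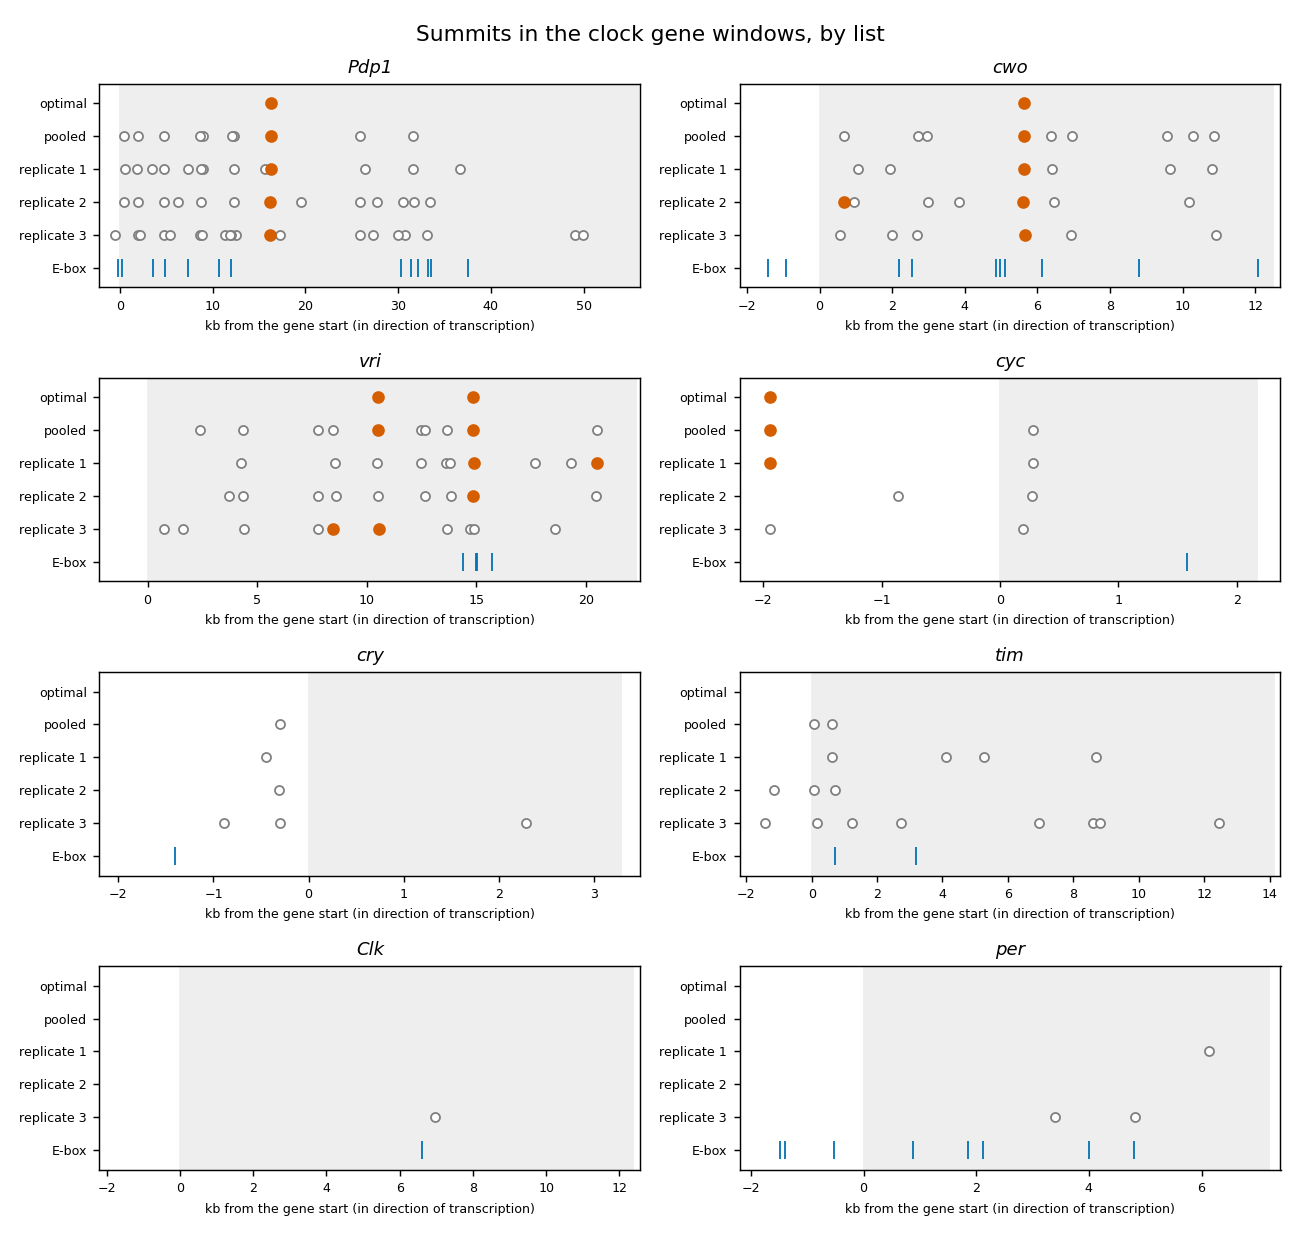
Summits in each clock gene window by list (rows) against distance from the gene start in kb, with the gene in grey, filled circles for ranks up to 2397, open circles for weaker regions and ticks for E-boxes. Pdp1 has its filled circle at 1 place in every list, cwo has a second one in replicate 2, the filled circles of vri stand at several places, and the 8 E-boxes of per lie in a window with no pooled region.

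Across all protein-coding genes the share with an optimal peak was higher in longer genes, and the clock genes are long. They had a median length of 12433 bp, against 2166 bp for all protein-coding genes. An optimal peak was found for 4 of 8 clock genes and for 17.1% of all genes. With peaks kept only if they were top regions in both remaining replicates, the count was 2 without replicate 1 or replicate 2 (cwo and Pdp1), against 12.2% and 12.3% of all genes. Of the 5 clock genes of 10 kb or more, 3 had an optimal peak, against 37.9% of all genes of that length. Of the 3 shorter ones 1 had a peak, against 13.7%, and this was cyc, through the peak at Fibp. The share of genes with an optimal peak was 32.8% between 10 and 20 kb, the bin of cwo, Clk and tim, and 50.5% from 50 kb, the bin of Pdp1. With so few genes, a difference from these shares cannot be read from the counts.

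**Figure D3:**
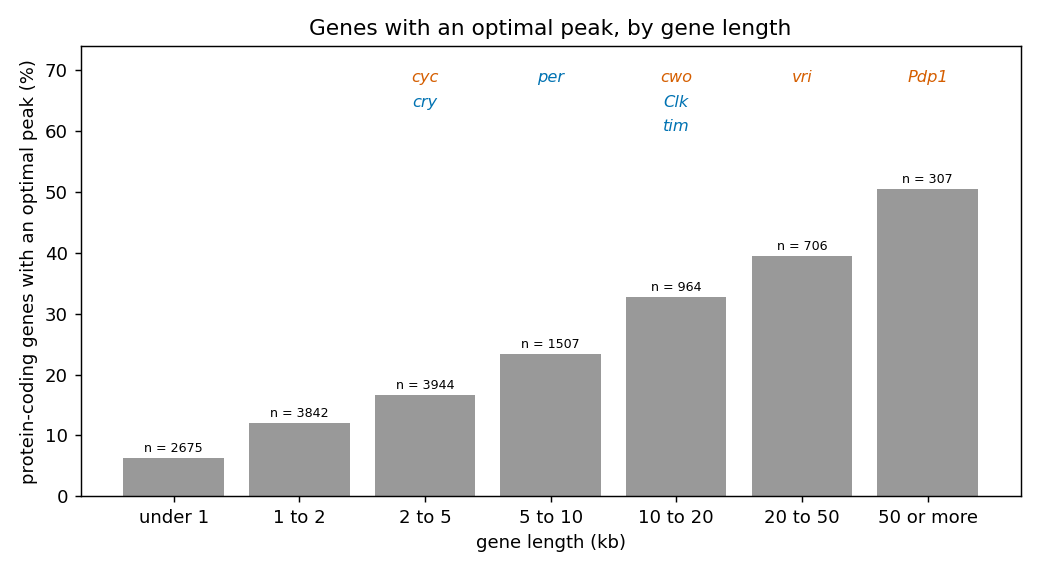
Share of protein-coding genes with an optimal peak (%, bars, number of genes above) by gene length in kb, with each clock gene written over its bin, in orange with a peak and in blue without. The share was 12.1% from 1 to 2 kb and 50.5% from 50 kb, and both colours occur among the clock genes of 2 to 5 kb and of 10 to 20 kb.

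A region in the pooled list was common for any long gene. It was found for 6 of 8 clock genes, against 76.0% of all genes and 94.9% of genes of 10 kb or more. Clk, at 12.4 kb, was among the few genes of that length without one, and per, at 7.2 kb, had none where 90.0% of genes of 5 to 10 kb had 1. The 8 windows held 34 pooled regions, or 2.33 per 10 kb, against 2.73 per 10 kb over all gene windows. The density was 6.21 per 10 kb in cwo, 4.80 in cyc, 4.12 in vri, 1.89 in cry, 1.73 in Pdp1, 1.24 in tim and 0 in Clk and per.

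Replicate by replicate, the numbers of clock genes with a top region were 4, 3 and 3, against 17.3%, 16.6% and 17.2% of all genes in replicates 1, 2 and 3. The same 3 genes, cwo, vri and Pdp1, had a top region in every replicate, which held for 11.5% of all genes. Any region in every replicate list was found for 6 clock genes and for 57.8% of all genes. Of the 34 pooled regions, 12 were matched in all 3 replicates, 15 in 2, 6 in 1 and 1 in 0. The same shares over all pooled regions were not determined, so these counts describe the clock genes alone. Replicate 3 listed 52 regions in the 8 windows, more than replicate 1 with 37 and replicate 2 with 35, and it was the only list with a region in Clk.

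By position, introns held 23 of the 34 pooled summits, 5' UTRs held 5, coding exons 4 and upstream sequence 2. Gene spans made up 89.0% of the base pairs in the windows searched. Shares by intron, UTR, exon and upstream sequence were not determined over all pooled regions, so the counts by position describe the clock genes alone. Within 500 bp of a TSS of any gene were 8 of the 34 (23.5%), against 24.2% of all pooled summits. Of the 5 optimal peaks those at cyc and the weaker one of vri were that close, against 47.5% of the optimal set. The peaks of cwo, Pdp1 and cyc lay in sequence of 27.4%, 30.3% and 28.9% GC over 100 bp to each side of the summit, below the lower quartile of all optimal peaks (33.3%). The stronger vri peak, at 50.2%, was above the upper quartile (41.8%).

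Motifs were searched on both strands over 100 bp to each side of a summit. The 4 boxes were the E-box CACGTG, the class C box CACGCG, the CACNAG box (the kind known as an N-box), and the related AACGTG. The others were the bZIP site TTANGTAA, the promoter element known as DRE (TATCGATA), the GAGA repeat (GAGAG), the Zelda site (CAGGTA) and a site of the Notch effector Su(H) (GTGGGAA). Matches to different motifs may overlap, as CACNAG and the Zelda site can. At the 5 optimal peaks only CACNAG was found, at 2 summits: that of cwo, where it starts 78 bp before the summit, and that at Fibp. It was present at 21.7% of all optimal summits and at 23.9% of gene starts. The E-box was at 0 of the 5 and at 2.88% of all optimal summits, a share at which 5 peaks would seldom hold any. TTANGTAA, the kind of site that VRI and PDP1 bind, was at 0 of the 5 and at 4.84% of all optimal summits. That 0 depended on the window. Around the replicate summits of the cwo peak, the same window held a TTANGTAA match in replicates 1 and 3 and none in replicate 2. Within 200 bp of the summit TTANGTAA was at 1 of the 5 optimal peaks, against 8.76% of all optimal summits.

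Among the 29 member regions outside the optimal set, AACGTG was at 6 summits (20.7%), CACGCG at 4 (13.8%), CACNAG at 9 (31.0%) and the E-box at 2 (6.90%). The shares over all pooled regions outside the optimal set were 6.48%, 5.50%, 27.1% and 3.03%. At least 1 of the 4 boxes was at 17 of the 29 (58.6%), against 37.4%. Within 50 bp of the summit this was 8 of the 29 (27.6%, against 21.0%), and within 200 bp 22 (75.9%, against 59.8%). The 29 regions lie in 6 genes and some overlap, so they are not independent. GAGAG was at 7 (24.1%), CAGGTA at 2 (6.90%) and the other 3 motifs at none. Over all pooled regions outside the optimal set GAGAG was at 6892 of 27603, a share close to that of the clock genes. CAGGTA was at 4.75% of those regions, and TTANGTAA, TATCGATA and GTGGGAA were at 2.23%, 0.931% and 2.53%.

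The windows of per and cwo were dense in E-boxes. The 8 windows held 40, or 2.74 per 10 kb, against 1.23 per 10 kb over the arms, and per and cwo carried much of this. per had 8 (8.69 per 10 kb) and cwo 10 (6.90 per 10 kb). Pdp1 had 13 (2.24 per 10 kb), vri 4 (1.65 per 10 kb) and tim 2 (1.24 per 10 kb). cyc, cry and Clk had 1 each, which is 2.40, 1.89 and 0.696 per 10 kb of their windows. Within 100 bp of a pooled summit were 2 of the 40 (5.00%), against 5.79% of the 16428 E-boxes of the arms. Within 100 bp of an optimal summit were 0 of the 40, against 0.432% over the arms. Both shares are near those of the arms.

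The 2 E-boxes near a pooled summit belonged to tim and Pdp1. That of tim is the E-box printed above, centred 67 bp from the summit of rank 7556, and 67, 18 and 543 bp from the nearest summits of replicates 1, 2 and 3. That of Pdp1 was 42 bp from a weak region of rank 27995. The pair printed for vri was centred 127 and 145 bp from the optimal summit of rank 2064, and the nearer of them was 96, 140 and 84 bp from the replicate summits. In cwo the E-box closest to the optimal summit was 503 bp away. The 8 E-boxes of per, with the one shown at -528 bp from the start, were all at least 1676 bp from a pooled summit. Another of them, at 4802 bp from the start, was 16 bp from a weak summit of replicate 3 (rank 25350). It was 1328 and 5737 bp from the nearest summits of replicates 1 and 2.

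Of 37 other genes of the clock pathway, 14 (37.8%) had an optimal peak, against 17.1% of all genes and 37.9% of genes of 10 kb or more. Their median length was 13.0 kb, with genes on both sides of 10 kb, and 13.7% of all genes under 10 kb had a peak. The 37 genes were not split by length, so their share is a description and no result about the pathway. The counts in its lists below are read against the same shares. Among kinases, phosphatases and ubiquitin ligases that act on PER and TIM, 5 of 12 had a peak. dco, the gene of the kinase Doubletime, had a peak at -339 bp from a TSS of its own with rank 578, next to the rank of cwo, and ranked 529, 671 and 750 in the replicates. sgg, the glycogen synthase kinase 3 gene, had a peak of rank 139 at -196 bp from a TSS, with replicate ranks of 149, 121 and 193. The phosphatase subunit genes wdb, mts and tws had peaks of rank 308, 1103 and 1149, and that counted for mts lay at -8 bp from the TSS of Rack1. The casein kinase 2 genes CkIIalpha and CkIIbeta had no optimal peak.

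Of 7 regulators of clock gene transcription and translation 4 had a peak. Eip75B, a nuclear receptor gene of 114 kb, had 6 peaks, the first at rank 311, and the CBP gene nej had rank 761. The Fos gene kay and the nuclear receptor gene Hr51 had ranks of 907 and 1831. Of 8 output and signalling genes only norpA, the phospholipase C gene of phototransduction, had a peak (rank 90, with 68, 108 and 89 in the replicates), and Pdf, the neuropeptide gene of the clock neurons, had none. Of 10 relatives of CLK, CYC, VRI and PDP1 4 had a peak: sim, the midline regulator (rank 124, with 127, 135 and 129 in the replicates), sima, the hypoxia factor gene (rank 399), gce, a juvenile hormone receptor gene (rank 1222), and tai, a coactivator gene (rank 2290). tgo, the common partner of many of these proteins, had none. The TSS nearest to the peak counted for nej, Hr51 or gce was that of a noncoding RNA gene. For the tai peak it was that of a tRNA gene, 25095 bp away, and for the wdb peak that of CG5646. The regulated gene is therefore not known from position.

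**Figure D4:**
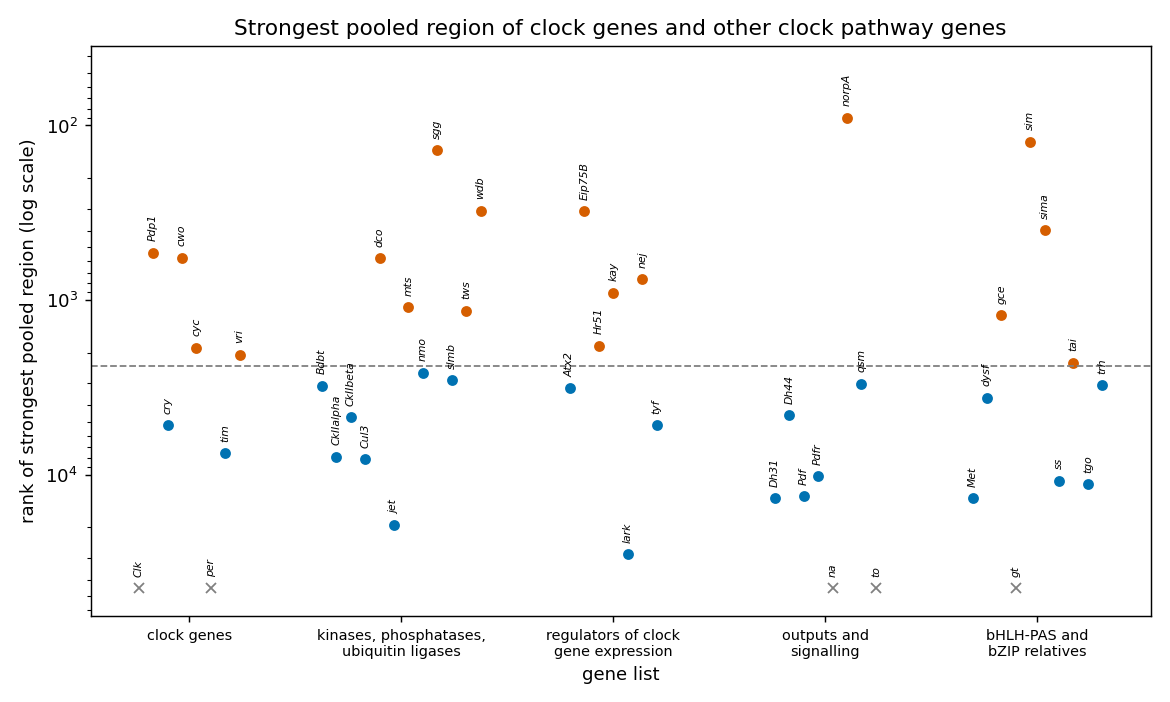
Rank of the strongest pooled region (vertical axis, log scale, strongest at the top) of each clock gene and of each of 37 other clock pathway genes in 4 lists; orange is within the optimal set, blue outside it, crosses are genes with no pooled region and the dashed line is rank 2397. Pdp1 and cwo lie among the orange points of the other lists, and norpA at rank 90 is the highest point.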

How the data were processed

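The input was the dm6 peak lists of 3 biological replicates; dm3 lists were not used. Per the labels, chromatin was sonicated to a size range of 200 to 800 bp. The deposited signal is the authors' own value per region, with no stated scale, and was used only to rank regions within a list. The authors' q-value is deposited as −log10, and the deposited summit is another column, an offset from the region's start. Regions were listed per replicate and for the pooled replicates, per the file labels, which name the pooled list peaks and background. The optimal set was checked to be the strongest part of the pooled list. The sources used here name no aligner, peak caller, version or threshold. Depth per sample is unknown, and no p-values or intervals were computed.

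Summits were placed on gene models of Ensembl release 115 and motifs on the RefSeq Release 6 genome, the same build as dm6, over the arms. Summits within 200 bp counted as matched. The members, lists and motifs were chosen with earlier results of these data known. Named are all 8 members, other clock pathway genes with an optimal peak, up to 4 without one, and the gene of the nearest TSS. The placement code was run on simulated summits drawn inside gene windows, with 200 of 200 planted genes recovered among 13945. Such a run checks the counting and cannot test the choice of window or the gene models. Alternatives changed the gene window, the length of the top lists, the match, the motif window and the replicates used. Tools were pandas 2.3.3, SciPy 1.17.1 and NumPy 2.4.6 under Python 3.11.15, with plots from Matplotlib 3.10.9.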

Additional observations from a re-analysis of the deposited data

How the results depend on the processing

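Of 71 alternatives, 60 left a value within 1.5 times its count or within 1 SD of its rank, and 11 moved it. The count of 4 clock genes with an optimal peak was 1 (vri; 12.4% of all genes) when a summit within 1 kb of a TSS was required and 2 (cwo and Pdp1; 8.24% of all genes) with the strongest 1000 peaks. With 1 replicate left out at a time, keeping the optimal peaks that were top regions in both others, it ranged from 2 to 3, from 1591 to 1665 peaks. Without replicate 1 or replicate 2 it was 2 (cwo and Pdp1), and without replicate 3 it was 3 (12.5% of all genes). With the gene span alone, with 1 kb upstream or by nearest TSS it was 3, without cyc (7.87%, 15.3% and 11.9% of all genes). The count of 3 genes with a top region in every replicate was 0 when only summits up to 1 kb from a TSS counted (7.77% of all genes), and 2 when the regions had to match at the same place, without vri (11.1%). The count of 2 of 5 optimal summits with a box was 1 within 50 bp of the summit and 4 within 200 bp, against 394 and 1319 of the 2397 optimal summits. Over all pooled summits of the clock genes it was 19 of 34, against 31.2% of all optimal summits and 37.4% of the other pooled summits. The count of 2 E-boxes near a pooled summit was 7 within 200 bp (17.5%, against 11.4% over the arms), and 0 within 100 bp of an optimal summit (0.432% over the arms). The mean rank of vri was 2558.3 when the nearest region of each replicate was matched to its pooled summit. No paired analysis was possible because the samples form 1 group.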
